A study of Bos taurus with 8 samples.

Results

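The genes described here encode the proteasome core, its interferon-inducible variant and the machinery that trims, transports and loads peptides onto major histocompatibility complex (MHC) class I molecules. They were measured in primary bovine granulosa cells, the hormone-producing cells that surround the oocyte. The list holds 34 genes, and a gene was counted as measured where an array probe set carried its symbol and no other. That gave 32 genes of the 18010 named on the arrays, each represented by the probe set that was brightest over all 8 arrays. PSMA2 and TAP2 had only probe sets shared with a second symbol, and no value is given for them. The list itself was drawn up with earlier results of these arrays known. The probe set of each gene was chosen by its mean level over all arrays, a value in which the treatment groups are not told apart, and no filter on low values was applied.

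Cultures that received non-esterified fatty acids as a mix (NEFA, 4 arrays) were compared with cultures that received bovine serum albumin (BSA, 4 arrays). All cultures grew without serum in alpha-MEM with FSH, IGF-1 and androstenedione. The medium was exchanged for NEFA or BSA medium on day 2 and day 4, and RNA was taken on day 6. Neither the fatty acids in the mix nor their dose is stated in the labels. The labels also do not tie the replicates to separate animals, pools or cultures, and the p-values therefore rest on a spread between samples that may be technical.

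The proteasome degrades ubiquitin-tagged proteins in a barrel of stacked alpha and beta rings, and some of the resulting peptides are displayed on MHC class I. Interferons induce alternative catalytic beta subunits, which replace the constitutive ones in newly built particles to form the immunoproteasome, and they also induce the PA28 activator, the TAP peptide transporter and class I chains. In the endoplasmic reticulum, aminopeptidases trim the peptides before a loading complex places them on class I molecules. These roles were worked out mainly in human and mouse cells.

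The immunoproteasome subunit PSMB8, the PA28 subunits PSME1 and PSME2, the trimming enzymes ERAP1 and ERAP2 and the class I chain BOLA-NC1 rose with NEFA, by 1.35 to 1.76 times. No subunit of the constitutive core passed the test in either direction. In all, 6 of the 32 measured genes rose (18.8%), 0 fell and 26 did not pass (limma, Benjamini-Hochberg adjusted over all 24415 probe sets, threshold 0.05). Without adjustment, 10 had p under 0.05, 8 with a higher and 2 with a lower value. Over all named genes, 2.35% passed, 0.999% as higher and 1.35% as lower, and 16.8% had an unadjusted p under 0.05, 7.90% higher and 8.92% lower. The groups did not overlap for 11 of the 32 genes (34.4%), 9 higher and 2 lower, where 12.4% of all named genes showed no overlap, 5.19% as higher and 7.20% as lower. The members were chosen with results known, so these shares describe the list and are not a test of it. RNA was taken from whole cultures, so more cells with a transcript and more transcript per cell cannot be told apart. With 1 array left out, 3 genes passed without NEFA 2 or NEFA 3 and 4 without any other array, PSMB9 among them without BSA 3. PSMB8 and ERAP2 passed whichever array was left out.

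**Figure D1:**
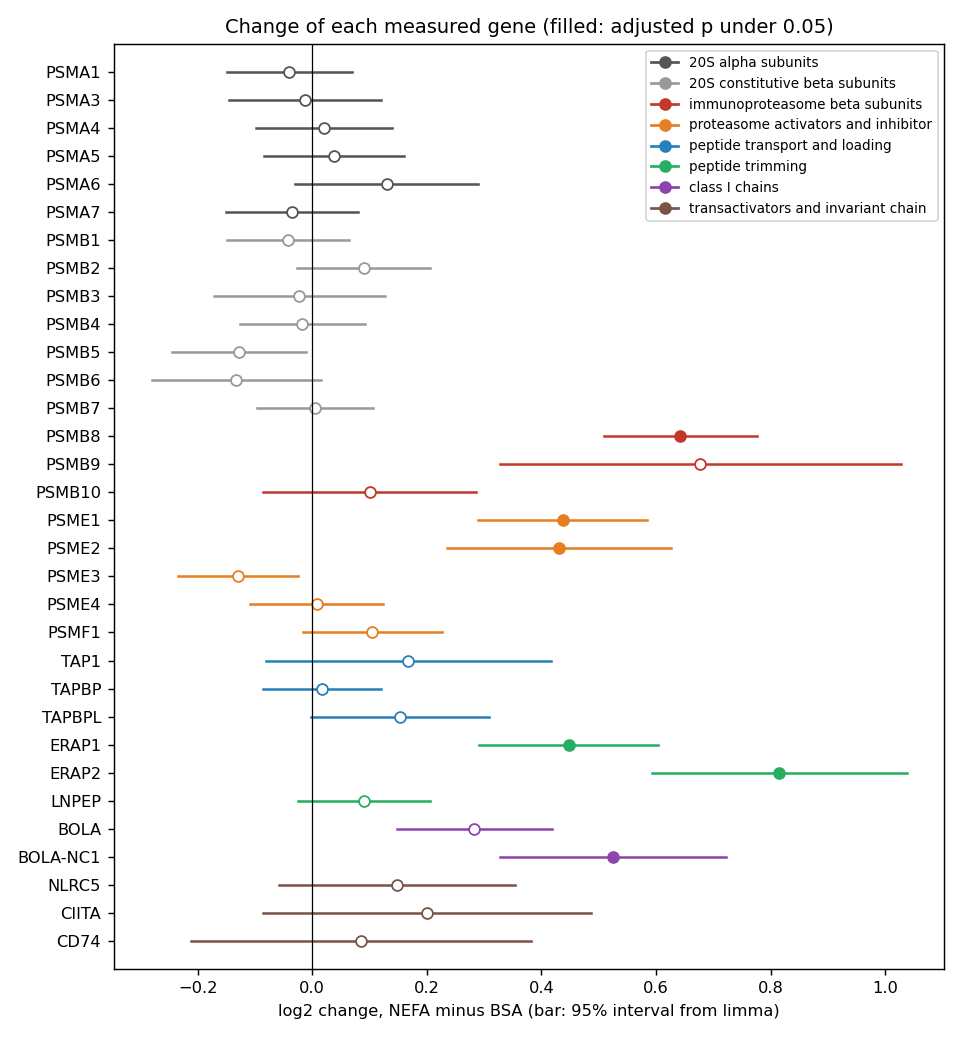
Log2 change, NEFA minus BSA, of each of the 32 measured genes, coloured by role, with the 95% interval of limma as a bar and filled points for adjusted p under 0.05. The 13 constitutive core genes lie between -0.13 and 0.13, and the filled points lie between 0.43 and 0.82.

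The 8 granulosa markers had a median level of 7.84 on the log2 scale, against 5.36 over all named genes, and ran from 4.83 (HSD17B1, a steroid dehydrogenase) to 11.6 (INHBA, an inhibin subunit). None of them passed (limma); 2 had an unadjusted p under 0.05, HSD17B1 with a change of -0.75 (adjusted p = 0.12) and CYP19A1, the aromatase, with 0.51 (adjusted p = 0.17). Of the 8, 5 had higher and 3 lower values, and the median was 0.09. Of 16 measured leukocyte markers, 0 passed in limma (2 higher and 1 lower had p under 0.05 without adjustment), 11 had higher and 5 lower values, their median change was 0.11 and their median level was 3.47. Their changes ran from -0.22 (CORO1A) to 0.35 (CD53). The markers with p under 0.05 before adjustment were LCP1 (0.225) and CSF1R (0.13), both higher, and CORO1A, lower (18.75%, beside 16.8% of all named genes). PTPRC, the common leukocyte antigen, was 2.96, 2.56, 2.70 and 3.0 on NEFA 1 to 4, against 2.97, 2.80, 3.04 and 3.02 on BSA 1 to 4. With a change of -0.15, PTPRC was among the 5 leukocyte markers with lower values, unlike the 11 others. The mean over the leukocyte markers ran from 3.47 to 3.55 on NEFA arrays and from 3.36 to 3.48 on BSA arrays. Of 6 endothelial markers, VWF fell by 0.35 (limma, adjusted p = 0.039) and 5 did not pass; 4 had higher values, and the median change was 0.01. Of 6 markers of theca and fibroblast cells, PDGFRA fell by 0.30 (limma, adjusted p = 0.042) and 5 did not pass. In this list 4 had higher values, and the median change was 0.14. Its median level was 7.61, near the 7.84 of the granulosa markers. Before adjustment 5 of these 6 theca and fibroblast markers had p under 0.05 in limma (83.3%, beside 16.8% of all named genes). PDGFRA and PDGFRB (-0.18) were lower, and CYP17A1 (0.33), INSL3 (0.22) and DES (0.34) were higher. The part of these markers in the results was not tested.

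The constitutive core was nearly level. The alpha subunits form the outer rings of the barrel and gate its entry, and the 6 that were measured changed by -0.04 (PSMA1) to 0.13 (PSMA6), with standard errors (SE) of at most 0.070. The 7 constitutive beta subunits changed by -0.13 (PSMB6) to 0.09 (PSMB2). Of the 13 core genes, 0 passed (limma), 5 had higher and 8 lower values, and the median change was -0.02, beside 0.005 over all named genes. Without adjustment, 1 was lower at p under 0.05 (7.69%, beside 16.8% of all named genes). The lowest and highest bounds of the 13 intervals (95%) were -0.28 and 0.29, so larger shifts than that lay outside each of them.

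The constitutive beta ring carries 3 catalytic subunits: PSMB5, with chymotrypsin-like activity, PSMB6, with caspase-like activity, and PSMB7, with trypsin-like activity. PSMB5 (probe set 12690700) was 9.57, 9.44, 9.51 and 9.44 on NEFA 1 to 4, against 9.64, 9.64, 9.61 and 9.58 on BSA 1 to 4. Its groups did not overlap, but the change of -0.13 (SE 0.051) did not pass (limma, adjusted p = 0.27). PSMB6 (probe set 12769282) was 8.17, 8.16, 8.13 and 8.03 with NEFA, against 8.22, 8.39, 8.25 and 8.16 with BSA. The PSMB6 values overlapped narrowly, with a change of -0.13 (SE 0.065; limma, adjusted p = 0.36). PSMB7 (probe set 12705309) was 9.64, 9.61, 9.66 and 9.68 with NEFA and 9.64, 9.65, 9.63 and 9.65 with BSA. Its values were the same to within 0.07 on all arrays.

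Of the 3 immunoproteasome subunits, PSMB8 rose, PSMB9 was higher on every NEFA array without passing, and PSMB10 overlapped between the groups. PSMB8, which takes the place of PSMB5, was 6.54, 6.66, 6.55 and 6.43 on NEFA 1 to 4, against 5.89, 5.88, 5.92 and 5.92 on BSA 1 to 4 (probe set 12804571). The BSA arrays lay within 0.04 of each other, and the lowest NEFA array stood clear of all of them. The change was 0.64 (SE 0.059), a 1.56-fold rise (limma, adjusted p = 0.0017), with a 95% interval from 0.51 to 0.78.

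PSMB9, which takes the place of PSMB6, was 5.54, 5.56, 5.35 and 5.23 with NEFA, against 4.76, 4.74, 5.12 and 4.35 with BSA (probe set 12801645). Every NEFA value was higher than every BSA value, but the BSA arrays were widely spread, with an SD of 0.31 against 0.16 on the NEFA arrays. The change of 0.68 (SE 0.15) was as large as that of PSMB8 and missed the threshold (limma, adjusted p = 0.069). It passed without BSA 3, at a change of 0.80 (adjusted p = 0.045), and apart from the replicate block the alternatives gave an adjusted p from 0.011 to 0.16.

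PSMB10, which takes the place of PSMB7, was 7.84, 7.82, 7.83 and 7.58 with NEFA, against 7.51, 7.73, 7.75 and 7.68 with BSA (probe set 12755826). NEFA 4 was low and fell among the BSA arrays. The change was 0.10 (SE 0.082) and did not pass (limma, adjusted p = 0.60). Its 95% interval, from -0.09 to 0.29, ends below the lower bounds of PSMB8 (0.51) and PSMB9 (0.33). The differences between these genes were not tested. Without NEFA 4 the PSMB10 change was 0.16 (limma, adjusted p = 0.37).

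Set against its constitutive counterpart on the same array, each immune subunit gives a log ratio, taken here relative to the mean of the BSA arrays. The ratio of PSMB8 to PSMB5 was higher by 0.69, 0.94, 0.76 and 0.71 on NEFA 1 to 4, while the BSA arrays lay between -0.05 and 0.06, and the mean shift was 1.71-fold. The ratio of PSMB9 to PSMB6 was higher by 0.88, 0.91, 0.73 and 0.71 on the NEFA arrays, with BSA arrays from -0.30 to 0.38. The ratio of PSMB10 to PSMB7 was 0.18, 0.19, 0.15 and -0.13 on the NEFA arrays, and the BSA arrays, at -0.16 to 0.10, overlapped with NEFA 4. PSMB8 and PSMB9 were thus higher relative to the core subunit they replace on all 4 NEFA arrays than on any BSA array, and PSMB10 was not. These ratios combine genes chosen with results known and are given without a test.

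**Figure D2:**
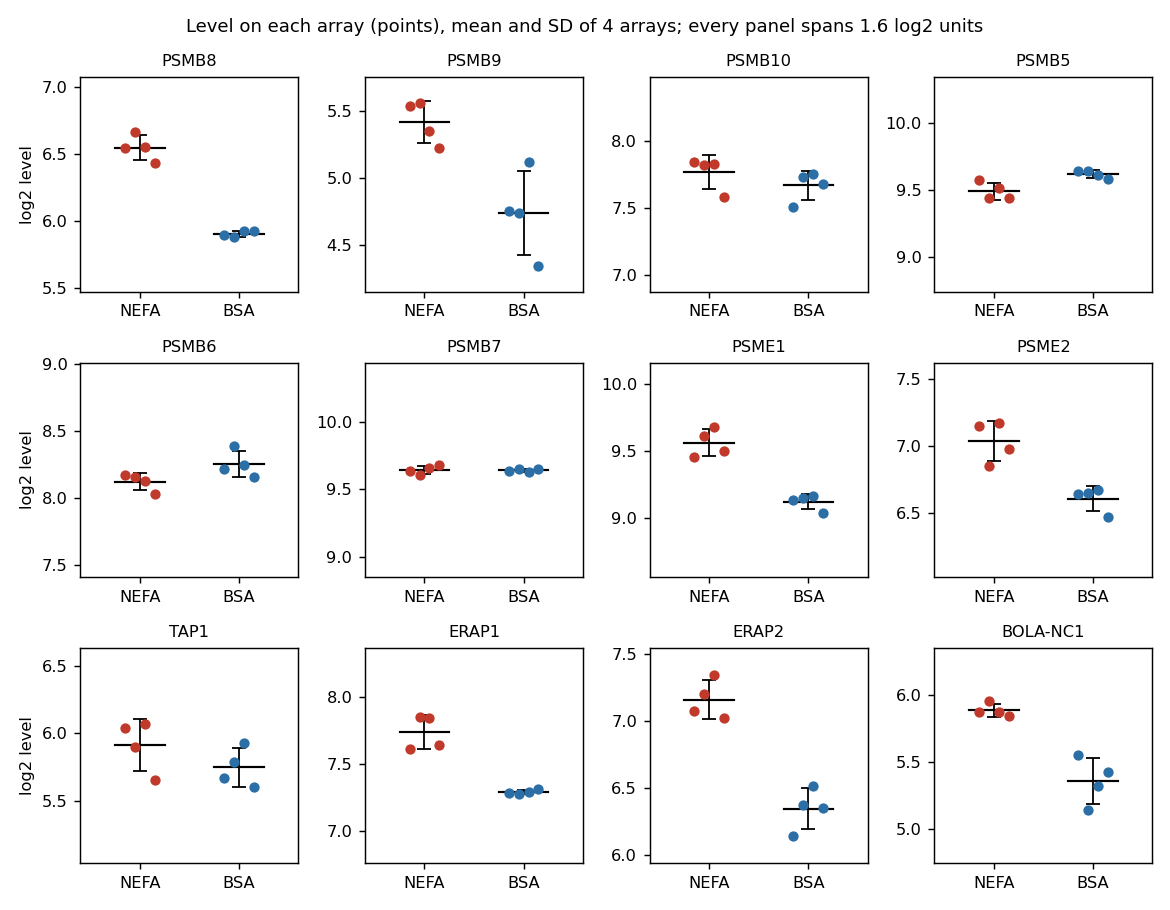
Log2 level on each NEFA array (red) and BSA array (blue) for 12 genes, with the mean and SD of the 4 arrays of a group in black and the same span of 1.6 log2 units in every panel. PSMB8, PSME1 and ERAP1 show tight BSA values under clearly higher NEFA values, PSMB9 a wide BSA spread, and PSMB7 no visible shift.

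The activators that cap the core differed by type. PSME1 and PSME2 are the alpha and beta subunits of PA28, an interferon-inducible ring that opens the core. PSME1 was 9.46, 9.61, 9.68 and 9.50 on NEFA 1 to 4, against 9.14, 9.15, 9.17 and 9.04 on BSA 1 to 4 (probe set 12694398). All NEFA arrays were higher, and PSME1 rose by 0.44 (SE 0.065), or 1.35-fold (limma, adjusted p = 0.015). The call ended without NEFA 2 (adjusted p = 0.058).

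PSME2 was 7.15, 6.85, 7.17 and 6.98 with NEFA, against 6.64, 6.65, 6.67 and 6.47 with BSA (probe set 12688778). The groups did not overlap, with NEFA 2 and BSA 4 the lowest of their groups, and PSME2 rose by 0.43 (SE 0.086; limma, adjusted p = 0.044). This call is at the edge of the threshold: it held without NEFA 2 and was lost when any 1 of the other 7 arrays was left out (adjusted p up to 0.11 without NEFA 3) and with arrays centred on their median (0.066).

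PSME3, which forms the nuclear PA28 gamma activator, was 8.39, 8.35, 8.42 and 8.39 with NEFA and 8.48, 8.52, 8.52 and 8.55 with BSA. These values did not overlap either, in the opposite direction to PSME1 and PSME2, but the change of -0.13 (SE 0.046) did not pass (limma, adjusted p = 0.21). PSME4, the PA200 activator, changed by 0.01, and PSMF1, the PI31 inhibitor of the core, changed by 0.11 (limma, adjusted p = 0.96 and 0.38).

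Trimming enzymes of the endoplasmic reticulum showed the largest rise in the list. ERAP2 was 7.07, 7.20, 7.34 and 7.02 on NEFA 1 to 4, against 6.14, 6.37, 6.51 and 6.35 on BSA 1 to 4 (probe set 12878948). The gap between the groups was wider than the range of either, and ERAP2 rose by 0.82 (SE 0.097), or 1.76-fold (limma, adjusted p = 0.0057). Among all 18010 named genes this change ranked 44 from the top, with PSMB9 at 67 and PSMB8 at 79.

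ERAP1, which shortens peptides from their amino end to the length class I molecules bind, was 7.61, 7.85, 7.84 and 7.64 with NEFA, against 7.28, 7.27, 7.29 and 7.31 with BSA (probe set 12885399). The BSA arrays were nearly identical and NEFA 2 and NEFA 3 stood highest. ERAP1 rose by 0.45 (SE 0.069), or 1.36-fold (limma, adjusted p = 0.017). Its call was narrowly lost without BSA 1, BSA 2, BSA 3, NEFA 2 or NEFA 3, at adjusted p from 0.050 to 0.058.

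LNPEP, a related aminopeptidase of endosomal vesicles, was 8.14, 8.11, 8.16 and 8.21 with NEFA and 8.02, 8.03, 8.08 and 8.13 with BSA. The groups overlapped slightly, and the change of 0.09 (SE 0.051; 95% interval from -0.03 to 0.21) did not pass (limma, adjusted p = 0.43).

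None of the 3 measured transport and loading genes passed in limma or at an unadjusted p under 0.05. TAP1, a chain of the peptide transporter, was 6.04, 5.90, 6.07 and 5.65 on NEFA 1 to 4, against 5.67, 5.79, 5.93 and 5.60 on BSA 1 to 4. NEFA 2 and NEFA 4 lay within the range of the BSA arrays, and the change of 0.17 (SE 0.11) had a 95% interval from -0.08 to 0.42 (limma, adjusted p = 0.50). TAPBP, or tapasin, the bridge between the transporter and class I molecules, was 10.82, 10.87, 10.83 and 10.83 with NEFA and 10.86, 10.82, 10.80 and 10.80 with BSA. Its change of 0.02 (SE 0.045; 95% interval from -0.09 to 0.12) was among the smallest of the list. TAPBPL, a tapasin-related peptide editor, was 7.53, 7.52, 7.64 and 7.42 with NEFA, against 7.44, 7.44, 7.25 and 7.37 with BSA. NEFA 4 alone lay inside the BSA range, and the change was 0.15 (SE 0.068; limma, adjusted p = 0.32).

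Class I chains were higher on every NEFA array. BOLA-NC1, a non-classical class I chain, was 5.87, 5.95, 5.87 and 5.84 on NEFA 1 to 4, against 5.55, 5.14, 5.32 and 5.42 on BSA 1 to 4 (probe set 12805255). The NEFA arrays were tightly grouped and the BSA arrays spread, with SDs of 0.047 and 0.17. BOLA-NC1 rose by 0.53 (SE 0.086), or 1.44-fold (limma, adjusted p = 0.023). The call held without BSA 1 or BSA 2 and was lost without BSA 3, BSA 4, NEFA 1, NEFA 2, NEFA 3 or NEFA 4, at adjusted p from 0.052 to 0.074.

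The symbol BOLA, used for bovine class I heavy chains, had a pair of probe sets. The brighter one (probe set 12802789) was 8.46, 8.48, 8.59 and 8.41 with NEFA, against 8.24, 8.22, 8.24 and 8.11 with BSA. It did not overlap between the groups, and its change of 0.28 (SE 0.059) just missed the threshold (limma, adjusted p = 0.054; 0.0024 to 0.13 in the alternatives, the replicate block aside). The dimmer one (probe set 12805748) was 7.74, 7.88, 8.01 and 7.69 with NEFA, against 7.25, 7.01, 7.30 and 7.22 with BSA. That probe set, considered after its values were seen, was higher by 0.64 (SE 0.091) and passed (limma, adjusted p = 0.013). Class I genes are close copies of each other, so a probe set may bind transcripts of several of them.

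The transcriptional regulators were dim and did not pass. NLRC5, the transactivator of class I genes, was 4.01, 3.86, 3.97 and 3.95 with NEFA and 3.74, 3.89, 3.99 and 3.58 with BSA, a change of 0.15 (SE 0.090; limma, adjusted p = 0.47). CIITA, the transactivator of class II genes, was 3.97, 4.10, 3.98 and 4.46 with NEFA and 4.03, 3.73, 4.09 and 3.86 with BSA, a change of 0.20 (SE 0.13; adjusted p = 0.48, limma). CD74, the invariant chain of class II molecules, was 3.52, 3.51, 3.35 and 3.77 with NEFA and 3.11, 3.48, 3.64 and 3.58 with BSA, a change of 0.09 (SE 0.13; adjusted p = 0.80, limma). The groups of all 3 genes overlapped. Their levels lie below the median of the named genes.

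The constitutive core was also set against the immunoproteasome subunits, PA28, transport, loading and trimming genes as 1 set. The second set comprised PSMB8, PSMB9, PSMB10, PSME1, PSME2, TAP1, TAPBP, TAPBPL, ERAP1, ERAP2 and LNPEP. Of these 11 measured genes 5 rose (45.5%, beside 0.999% of all named genes) and 6 did not pass. All 11 had higher values, where 9282 of the 18010 named genes did, and the median change was 0.43. The core had a median of -0.02, with 5 of 13 values higher, so the medians differed by 0.45. Leaving out each array in turn gave differences from 0.40 to 0.47. The 11 changes were not evenly spread. TAPBP, LNPEP, PSMB10, TAPBPL and TAP1 lay from 0.02 to 0.17, and the others from 0.43 to 0.82. The median was the change of PSME2, the lowest of the higher part, so it does not describe the transport and loading genes. The mean of the 11 genes, relative to the BSA mean, was 0.37, 0.39, 0.43 and 0.26 on NEFA 1 to 4, against -0.03, 0.02, 0.07 and -0.06 on BSA 1 to 4. The mean of the 13 core genes was 0.02, -0.04, 0.02 and -0.05 on the NEFA arrays and 0.00, 0.02, 0.02 and -0.04 on the BSA arrays. The first mean separated the groups and the second did not. Both sets were chosen with results known, and no p is given for either.

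**Figure D3:**
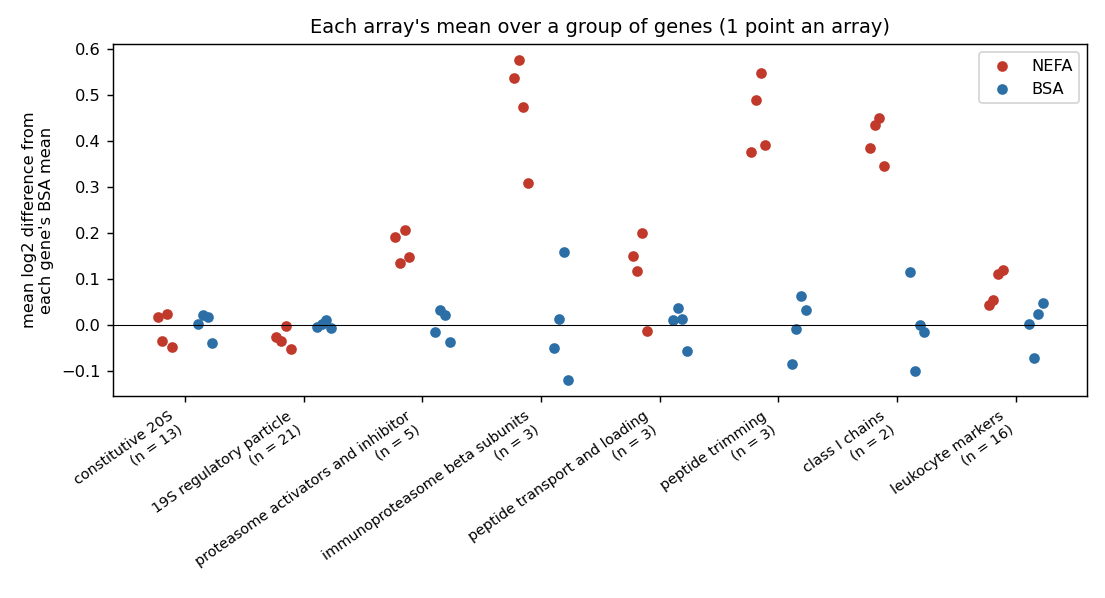
Mean log2 difference from each gene's BSA mean, 1 point an array, for 8 groups of genes with NEFA in red left of BSA in blue and the number of genes below each name. The NEFA arrays lie from 0.31 to 0.58 for the immunoproteasome subunits and from 0.38 to 0.55 for the trimming enzymes, while the constitutive core and the 19S particle stay within 0.06 of 0.

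The NEFA arrays differed among themselves. Over the 6 genes that rose, the mean difference from BSA was 0.51, 0.58, 0.64 and 0.46 on NEFA 1 to 4. NEFA 2 and NEFA 3 were each the highest NEFA array for 3 of the 6 genes, and NEFA 4 was the lowest for 3. PSMB10 and TAP1 likewise had their lowest NEFA value on NEFA 4, whereas LNPEP, CIITA and CD74 had their highest there.

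Several of these genes lie side by side in the genome. In the gene order of the RefSeq annotation of assembly ARS-UCD2.0, used here for order only, TAP1 stood between PSMB8 and PSMB9 inside the MHC, and ERAP1, ERAP2 and LNPEP were direct neighbours. PSME1 and PSME2 were separated by 1 protein-coding gene, EMC9. The genes of a run did not all pass: the NEFA minus BSA difference was 0.17 for TAP1 between PSMB8 (0.64) and PSMB9 (0.68), 0.13 for EMC9 between PSME2 and PSME1, and 0.09 for LNPEP beside ERAP2 (0.82). Of these, PSMB8, PSME1, PSME2 and ERAP2 passed. The differences between these neighbours were not tested.

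The 5 protein-coding genes on each side of the 3 runs, with EMC9, gave 28 measured neighbours that are not in the list, and 0 of them passed in limma (without adjustment, 6 higher and 3 lower had p under 0.05, or 32.1%, beside 16.8% of all named genes). For the neighbours of PSMB8, TAP1 and PSMB9, which include the class II genes BOLA-DMA, BOLA-DMB and BOLA-DOA, changes ran from -0.07 to 0.25. Around PSME1 and PSME2 they ran from -0.34 (PCK2, a mitochondrial phosphoenolpyruvate carboxykinase) to 0.53 (IRF9, the DNA-binding subunit of the interferon-activated complex ISGF3; limma, adjusted p = 0.073). Around ERAP1, ERAP2 and LNPEP they ran from -0.25 (GLRX, a glutaredoxin) to 0.43 (LIX1; limma, adjusted p = 0.084). These extremes were picked out after their values were seen.

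**Figure D4:**
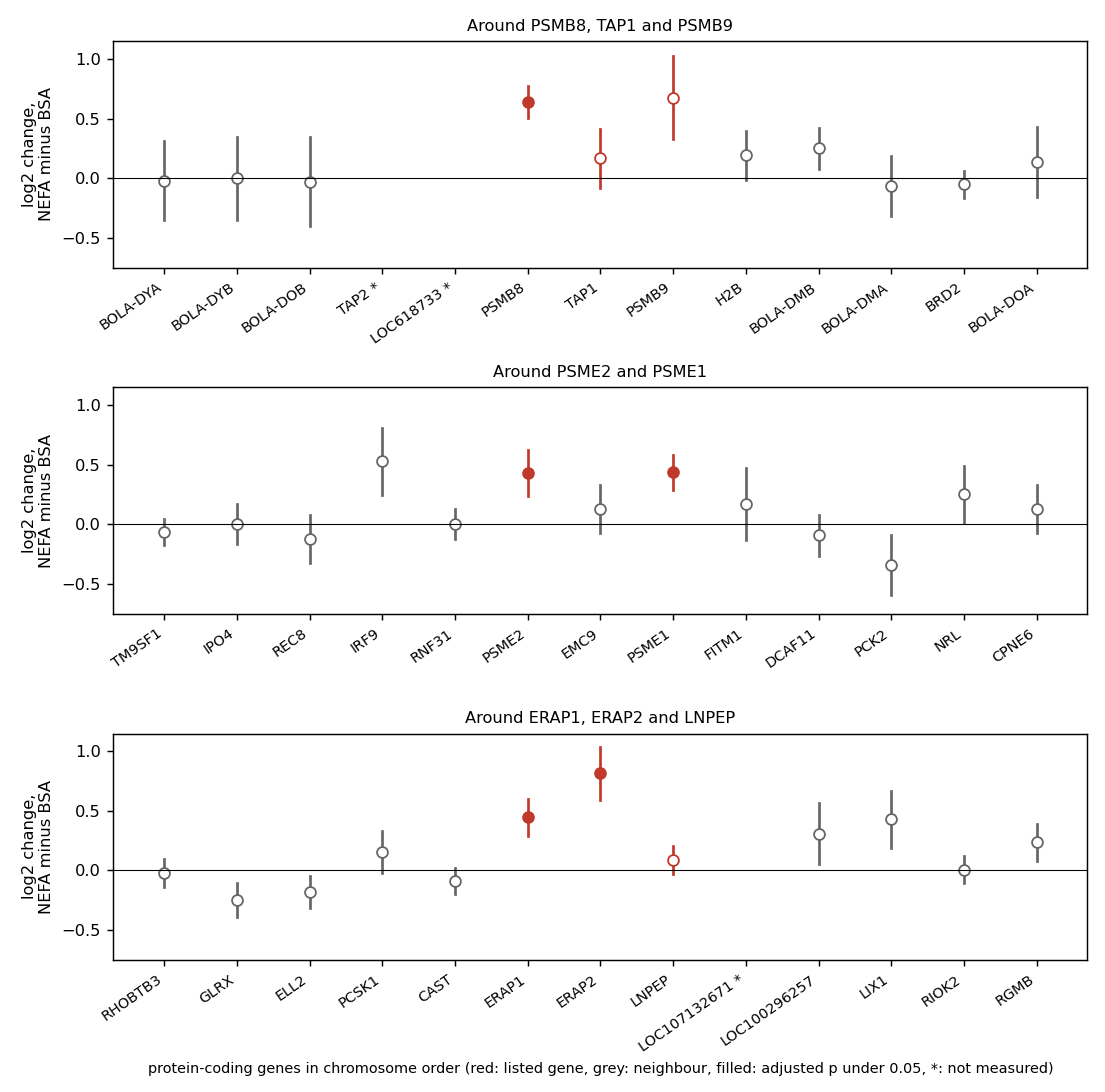
Log2 change, NEFA minus BSA, of listed genes (red) and of the 5 protein-coding genes on each side (grey) in chromosome order, with 95% intervals and filled points for adjusted p under 0.05. Filled points occur for PSMB8, PSME2, PSME1, ERAP1 and ERAP2 and for no neighbour.

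Other parts of the degradation and presentation route were set beside these genes. The 19S particle recognises and unfolds tagged proteins, and of its 21 measured genes 0 passed (limma; without adjustment, 1 higher and 3 lower had p under 0.05, or 4 of 21, beside 16.8% of all named genes), with a median change of -0.03. The groups did not overlap for 2 of the 21 as higher and 5 as lower (33.3%, beside 12.4% of all named genes). PSMD8, a lid subunit, had the smallest p, at -0.15 (SE 0.046; limma, adjusted p = 0.16). Of 12 proteasome assembly genes, which include POMP, the maturation factor, and NFE2L1, the transcription factor that restores proteasome genes, 0 passed (limma; 0 at an unadjusted p under 0.05). The median of the list was -0.02, and the member with the smallest p was the chaperone PSMG1, at 0.08 (limma, adjusted p = 0.51). Of 8 cytosolic peptidases 0 passed (limma, with 1 lower, or 12.5%, at an unadjusted p under 0.05, beside 16.8% of all named genes). Their median change was -0.06. Among them BLMH, bleomycin hydrolase, had the smallest p, at -0.15 (limma, adjusted p = 0.25).

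In the loading list of the endoplasmic reticulum, B2M alone passed of 8 genes (12.5%, beside 2.35% of all named genes). B2M, the light chain that completes class I molecules, was 9.78, 9.63, 9.99 and 9.63 on NEFA 1 to 4, against 9.18, 9.18, 9.37 and 9.31 on BSA 1 to 4. The groups were apart, and B2M rose by 0.50 (SE 0.092), or 1.41-fold (limma, adjusted p = 0.036); a second probe set rose by 0.48 (adjusted p = 0.043). The other 7 genes, among them the chaperones CALR, CANX and PDIA3, changed by -0.07 to 0.005, and the list median was -0.01.

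Of 14 measured genes of interferon gamma signalling and class I regulation, 0 passed (limma), with a median change of 0.07. Without adjustment, 1 was higher at p under 0.05 (7.14%, beside 16.8% of all named genes). That gene was IFNGR2, a chain of the interferon gamma receptor, which was 8.49, 8.60, 8.58 and 8.52 with NEFA, against 8.33, 8.31, 8.32 and 8.23 with BSA. Its groups were well apart, and the change of 0.25 (SE 0.051) fell just short (limma, adjusted p = 0.051).

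Of 11 class II genes 0 passed (limma), with a median change of 0.02 and a median level of 3.31. Without adjustment, 1 was higher at p under 0.05 (9.09%, beside 16.8% of all named genes). The gene with the smallest p was BOLA-DMB, a chain of the class II peptide exchanger, at 0.25 (SE 0.076; limma, adjusted p = 0.15).

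**Figure D5:**
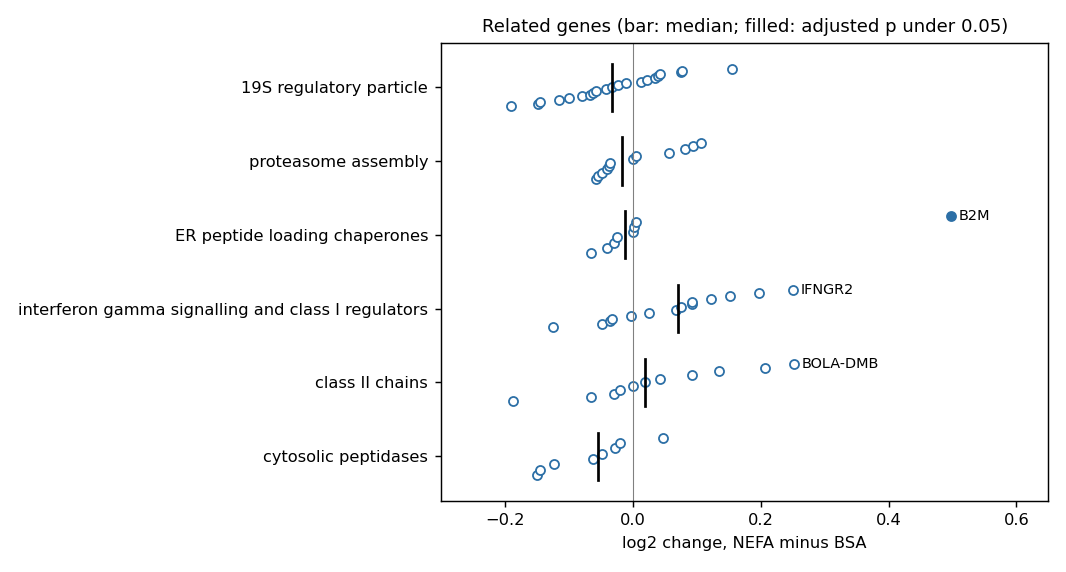
Log2 change, NEFA minus BSA, of each measured gene (points) of 6 related lists, with list medians as bars and filled points for adjusted p under 0.05. B2M is the 1 filled point, and the medians lie between -0.06 and 0.07.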

How the data were processed

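Per the submitters' processing notes, the deposited log2 levels were made by RMA. This method corrects background, equalises the distributions of the arrays and summarises each probe set, so it hides a shift common to all transcripts and understates folds of dim probe sets. No source used here gives the software version, probe annotation or genome build. The 24415 probe sets had values of 0.64 to 13.49, with a median of 4.78 to 4.86 per array; precision is limited by the number of arrays.

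Names came from the platform annotation, with symbols of genes outside the list updated by gene ID through RefSeq: 18457 had 1 symbol, 688 several and 5270 none. Groups were compared with limma 3.58.1 (lmFit, eBayes) in R 4.3.3, after a check on simulated data. Changes are NEFA minus BSA, and intervals are not adjusted for the number of genes. Members and lists were chosen with earlier results of these data known. All measured members were accounted for, with array values for those past the threshold and for the catalytic, PA28, trimming, loading, class I and regulator genes. Related lists are represented by members past the threshold or the smallest p.

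Alternatives were the replicate block, a further quantile normalization, centring arrays on their median, eBayes with trend and robust options, weighted arrays, averaging a gene's probe sets, omitting the dimmest 33.3% of probe sets, leaving out each array, and, added after seeing the data, the second BOLA probe set.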

Additional observations from a re-analysis of the deposited data

Results flagged for a closer look

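In 4 of 64 groups of 4 arrays, 1 array stood far from the other 3 by Dixon's criterion (a gap that takes up most of the group's range), where chance gives about 5% of groups. PSMB10 was 7.58 on NEFA 4, against a highest NEFA value of 7.84. The other cases were all on BSA 4, which was the lowest BSA array: PSMB2 at 8.22, PSME2 at 6.47 and BOLA at 8.11. Without BSA 4, PSME2 changed by 0.38 and did not pass (limma, adjusted p = 0.11).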

How the results depend on the processing

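The number of listed genes that rose was 6, and 5 to 8 with the other normalizations, filters and fits apart from the replicate block and the left-out arrays, and 0 fell in any of them (limma; without adjustment, 2 had a lower value with p under 0.05 in the fit reported). It was 7 with the second BOLA probe set, and 3 to 4 without 1 array. With the replicate number as a block, 2 genes rose (PSMB8 and ERAP2). Same-numbered arrays deviated together only weakly (correlations from -0.01 to 0.07), and the labels do not say that a number marks a shared source. The deviations of NEFA 2, NEFA 3 and NEFA 4 nevertheless correlated best with the BSA array of the same number, and those of NEFA 1 with BSA 2. Whether the numbers pair the arrays was not tested. Of all named genes the block called 45 higher and 32 lower, against 180 and 243 without it, trend and robust eBayes 418 and 679, the set without the dimmest 33.3% 315 and 475, and the fits without 1 array 72 to 128 and 82 to 132. Centring moved the split of calls to 127 higher and 302 lower. The median change of the constitutive core was -0.053 with centred arrays, in which the median over all genes was -0.03, and -0.03 to -0.01 without 1 array. The median of the immune set was 0.38 to 0.45 without 1 array. No measured gene of the list reversed with a call. With the dimmest probe sets left out 31 of the 32 genes remained, CD74 being the one lost.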
